A study of Mus musculus with 4 samples.

Results

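The naive pluripotency network of mouse embryonic stem (ES) cells is represented here by 10 transcription factors: Nanog, Klf2, Klf4, Klf5, Esrrb, Tfcp2l1, Tbx3, Nr0b1, Zfp42 and Prdm14. They were chosen by name, and all probes of the array whose gene name is one of them were taken, which gave 12 of the 55122 usable probes and 10 of the 36039 genes. The files name 9 of the genes by these symbols. Tfcp2l1 carries the older symbol Tcfcp2l1 there and was matched through the accession of its RefSeq transcript. The cells were E14Tg2A, an established mouse ES line of the 129/Ola strain, and each of 4 groups was measured on 1 single-colour Agilent array that received RNA pooled from 3 experiments. ES were cells at day 0, kept on gelatin in serum with leukaemia inhibitory factor (LIF) at 1000 U/mL. ELA were epiblast-like aggregates, the same cells after 2 days in chemically defined minimal medium without serum or LIF. AZA were aggregates grown for those 2 days with 50 nM 5-azacytidine, a cytidine analogue that blocks DNA methyltransferases, and CHQ were aggregates grown with 100 µM 5-carboxy-8-hydroxyquinoline, an inhibitor of histone lysine demethylases. All 4 groups share 1 cell line, and nothing in the data gives the spread between cultures.

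Naive pluripotency is the state of the preimplantation epiblast, and ES cells hold it in culture as long as LIF, through STAT3, and low FGF signalling keep a small set of factors expressed. These factors activate one another around Pou5f1 and Sox2, and most of them are lost when cells leave the naive state towards the formative and primed epiblast, while Pou5f1 stays on for longer. DNA methylation builds up across the genome during that exit, and histone methylation is remodelled.

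With 1 array a group there was no test, and the values below carry no p-value and no error between samples. Levels are log2 intensities after background correction and quantile normalisation of the 4 arrays, and a difference of 1 is a factor of 2. Levels of different probes are not set against each other. Repeated spots of 1 probe on the same array differed with a pooled SD of 0.137 to 0.159 log2 units, which covers the noise of the spot only. The ES and ELA arrays were on 1 slide and the AZA and CHQ arrays on another that was scanned in another session, so ELA against ES and CHQ against AZA are comparisons within a slide, whereas in AZA or CHQ against ELA or ES the slide and the treatment cannot be told apart. The second slide had the lower local background, with medians of 13 and 14 against 59 and 77 intensity units, and more gene spots well above background, 69.1% and 69.2% against 55.1% and 60.6%. All 8 markers of pluripotent cells that were looked at, Pou5f1 and Sox2 among them, were well above background on all 4 arrays. By the size rule defined next, 1 of the 8 was lower in ELA than in ES (Dppa4, -1.18; 5.38% of all genes were), and 2, Sall4 (-1.19 and -1.77) and Lin28a (-1.58 and -2.31), were lower in AZA and in CHQ than in ELA (12.1% and 12.7% of all genes), with none higher. A gene was counted as higher or lower where its log2 difference was at least 1, the mean of the 2 arrays reached 7.5 and the spot stood well above background on either array, called the size rule from here on.

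The 10 factors shared 1 broad pattern over the arrays. By the size rule each was lower in ELA than in ES (5.38% of all genes were) and higher in AZA than in ELA (13.8%). In CHQ 9 of the 10 were higher than in ELA (14.3%), and 6 of the 10 were lower than in AZA (4.78%). Nanog was the exception against ELA, with a level in CHQ close to that of ELA. In several other settings Prdm14 did not pass either, which left 8 higher in CHQ than in ELA (8.66% to 15.6% of all genes in those settings). With the mean of the probes of a gene 9 were higher in AZA than in ELA (12.8%). In such bulk samples fewer cells that express a factor and less RNA of it in each cell cannot be told apart.

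**Figure D1:**
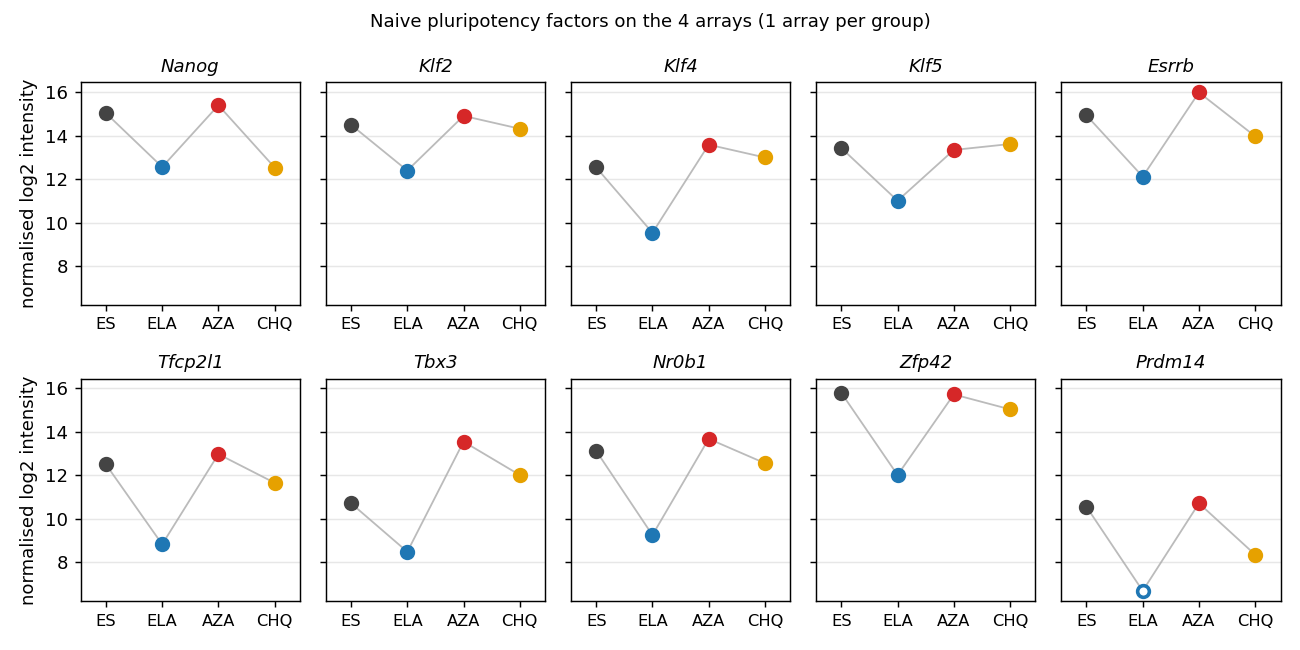
Normalised log2 intensity (vertical axis) of each factor on the ES, ELA, AZA and CHQ arrays (horizontal axis), 1 panel a gene, 1 point an array, with the open point for Prdm14 in ELA marking a spot not well above background. Every factor is lowest in ELA apart from Nanog, which stands at 12.55 in ELA and 12.53 in CHQ.

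Nanog, the homeobox factor at the centre of the network, read 15.03 in ES, 12.55 in ELA, 15.39 in AZA and 12.53 in CHQ at its brighter probe (mm9 chr6:122664590-122664649). ES and AZA were the high arrays, ELA and CHQ the low ones. The level was 5.56-fold lower in ELA than in ES and 7.15-fold higher in AZA than in ELA. CHQ minus ELA was -0.02 across slides, with a range from -0.54 to -0.02 over the settings run, none of which passed the size rule, and CHQ was 7.27-fold under AZA.

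The array holds a second, dimmer Nanog probe (mm9 chr6:122663676-122663735), which lies 854 bases upstream of the first on the plus strand, and it did not follow the first. It read 9.44 in ES, 9.71 in ELA, 8.12 in AZA and 8.65 in CHQ, with differences of 0.28 for ELA against ES, -1.59 for AZA against ELA, -1.06 for CHQ against ELA and 0.53 for CHQ against AZA. Apart from CHQ against ELA, the signs are the opposite of those of the bright probe. With the mean of both probes in place of the bright one, AZA stood 0.62 above ELA and no longer passed the size rule, ELA minus ES was -1.10 and CHQ minus AZA was -1.16. A further probe, listed in the files as Nanogpd, a name for a Nanog pseudogene, was looked up after these values were seen because its coordinates (mm9 chr6:122663514-122663573) put it 102 bases from the dim Nanog probe, inside the same locus. It read 11.46, 9.27, 11.39 and 8.81 in ES, ELA, AZA and CHQ, with differences of -2.19 for ELA against ES, 2.12 for AZA against ELA, -0.47 for CHQ against ELA and -2.58 for CHQ against AZA. So 2 of the 3 probes in the Nanog locus had the same 2 high and 2 low arrays, and the one that lies between them did not, while all 3 were lower in CHQ than in ELA, by amounts from 0.02 to 1.06 log2 units. Sequence decides what a probe can detect, so the last 30 bases of the 2 probes named Nanog are given, with the polyadenylation signal AATAAA in capitals where the 60-base probe holds it.
Nanog, bright probe: ttaaacaaAATAAAacactaattttacctt
Nanog, dim probe: cagaagagggcgtcagatcttgttacgtat
The bright probe holds the signal 16 bases before its end and the dim probe has no such letters. What the dim probe detects was not tested.

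**Figure D2:**
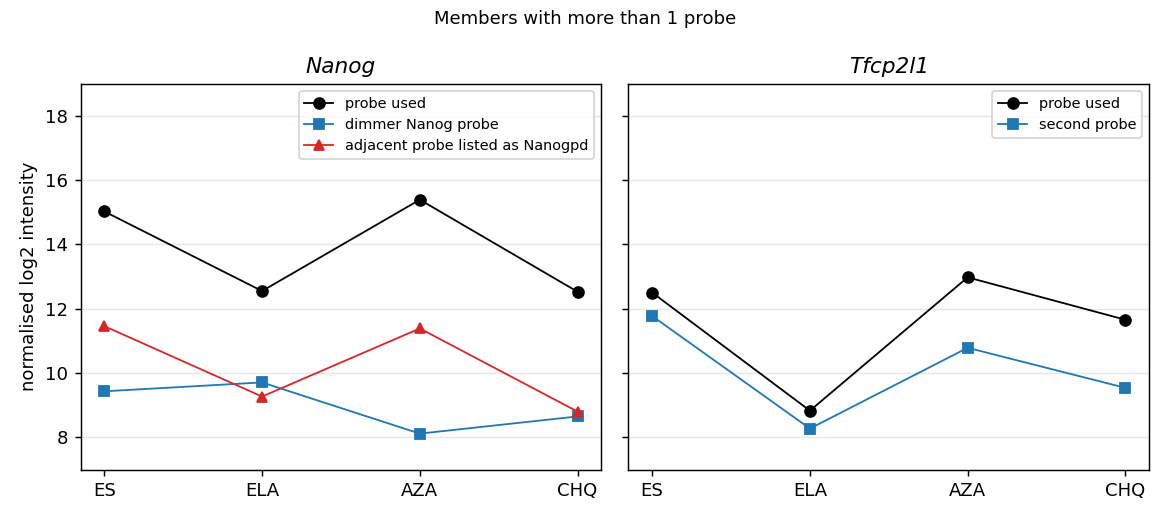
Normalised log2 intensity (vertical axis) on the 4 arrays (horizontal axis) of the 3 probes in the Nanog locus and the 2 probes of Tfcp2l1, 1 line a probe and 1 point an array. The bright Nanog probe and the adjacent probe are high in ES and AZA, the dimmer Nanog probe is highest in ELA at 9.71, and the Tfcp2l1 probes have the same order of ELA, CHQ and AZA but not of AZA and ES.

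Klf2, Klf4 and Klf5 are zinc-finger factors of the Krüppel-like family that replace one another in part in ES cells, Klf4 being a direct STAT3 target. Klf2 (mm9 chr8:74845137-74845196) read 14.49 in ES, 12.39 in ELA, 14.90 in AZA and 14.31 in CHQ. Klf4 (mm9 chr4:55540167-55540226, minus strand) read 12.53, 9.53, 13.58 and 12.99 in the same order. Klf5 (mm9 chr14:99702656-99712388) read 13.42, 11.00, 13.34 and 13.61. In all 3 genes ELA was the low array. Against ES, ELA was 4.29-fold lower for Klf2, 8.01-fold for Klf4 and 5.35-fold for Klf5. AZA was 5.71-fold, 16.6-fold and 5.04-fold above ELA, and CHQ 3.79-fold, 11.0-fold and 6.09-fold. None of the 3 passed the size rule between the treatments, where CHQ minus AZA was -0.59 for Klf2, -0.59 for Klf4 and 0.27 for Klf5. Klf5 was the only 1 of the 10 factors that was brighter in CHQ than in AZA. Its probe is the only one of the 12 whose genomic span is longer than the probe, so it joins exons and cannot pair over its whole length with genomic DNA or unspliced RNA. It is printed whole.
Klf5, exon-joining probe: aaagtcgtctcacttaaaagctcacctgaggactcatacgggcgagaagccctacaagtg

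Esrrb and Nr0b1 are orphan nuclear receptors, the first a DNA-binding activator that can stand in for Nanog in self-renewal, the second (Dax1) a cofactor without the usual DNA-binding domain. Esrrb (mm9 chr12:87862509-87862568) read 14.93 in ES, 12.11 in ELA, 15.98 in AZA and 13.96 in CHQ. It was 7.03-fold lower in ELA than in ES, 14.6-fold higher in AZA than in ELA and 3.61-fold higher in CHQ than in ELA. CHQ was 4.05-fold below AZA and lay between ELA and ES. Nr0b1 (mm9 chrX:83441169-83441228) read 13.13, 9.26, 13.68 and 12.56 in ES, ELA, AZA and CHQ. Its probe was printed in 10 spots, of which 8 to 10 an array were free of outlier flags, and these show how far the spot itself moves a value. They ranged from 12.91 to 13.48 in ES, from 9.07 to 9.45 in ELA, from 13.57 to 13.92 in AZA and from 12.49 to 12.64 in CHQ. No range overlapped another, but the spots are readings of 1 RNA pool and are not replicates. ELA was 14.6-fold lower than ES, AZA 21.5-fold and CHQ 9.88-fold higher than ELA, and CHQ 2.17-fold lower than AZA.

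Tfcp2l1, a grainyhead-related factor downstream of LIF and STAT3, had 2 probes. The brighter one (mm9 chr1:120581646-120581705) read 12.51 in ES, 8.83 in ELA, 12.98 in AZA and 11.66 in CHQ, and the second (mm9 chr1:120577637-120577696) 11.78, 8.28, 10.79 and 9.54. Both put ELA lowest and CHQ below AZA, with CHQ minus AZA at -1.32 and -1.25. They disagreed on the place of AZA relative to ES, which was 0.47 above at the first probe and 0.99 below at the second. AZA was 4.15 log2 units above ELA at the first probe and 2.51 at the second, and CHQ 2.83 and 1.26.

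Tbx3, a T-box factor that supports self-renewal and is also used later in endoderm and limb development, stood out by its levels in the treated arrays. It read 10.72 in ES, 8.49 in ELA, 13.55 in AZA and 12.02 in CHQ (mm9 chr5:120134511-120134570). Both treated arrays lay above ES, by 2.84 log2 units in AZA and 1.30 in CHQ, but with arrays scaled to spike-in RNA the CHQ difference was 0.26 and did not pass the size rule. AZA was 33.5-fold and CHQ 11.5-fold above ELA, and CHQ was 2.90-fold below AZA.

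Zfp42 (Rex1), a zinc-finger gene that arose from Yy1 and is widely used as a reporter of the naive state, read 15.79 in ES, 12.02 in ELA, 15.72 in AZA and 15.04 in CHQ (mm9 chr8:44380667-44380726, minus strand). AZA minus ES was -0.07, a value across slides that was -0.53 with the scanner's processed signals scaled to the 75th percentile of each array and -1.28 with spike-in scaling, where it passed the size rule. ELA was 13.7-fold below ES, and AZA and CHQ were 13.0-fold and 8.11-fold above ELA. CHQ minus AZA was -0.69 and did not pass the size rule, but with spike-in scaling it was -1.04 and passed.

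Prdm14, a PR-domain protein that holds down FGF signalling and the de novo DNA methyltransferases in naive cells, read 10.56 in ES, 6.69 in ELA, 10.72 in AZA and 8.35 in CHQ (mm9 chr1:13103555-13103614, minus strand). In ELA its spot was not well above background, so the differences from ELA are bounds. The level was at least 14-fold higher in ES, at least 15.7-fold higher in AZA and at least 3.04-fold higher in CHQ than the lowest signal called well above background on the ELA array. These bounds hold for the main setting, and with spike-in scaling the differences from ELA were 3.48 log2 units for AZA and 0.91 for CHQ, under these bounds. CHQ was 5.15-fold below AZA, and these 2 arrays are on 1 slide and both well above background.

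Leaving the naive state was examined with ELA against ES. All 10 factors passed the size rule as lower, each by more than 2 log2 units, against a background of 5.38% of the 18979 genes tested that passed it in that direction. With a difference of at least 2 required, that background was 1.23%. The median difference of the 10 was -2.91, the smallest drop was that of Klf2 (-2.10), Nr0b1 (-3.87), Zfp42 (-3.77) and Tfcp2l1 (-3.67) had large ones, and Prdm14 has no place in that order because of its dim ELA spot, while the median over all tested genes was 0.01. The smallest drop depends on the setting. With the mean of the probes of a gene it was that of Nanog (-1.10), which still passed the rule. With spike-in scaling Tbx3 (-2.79) dropped less than Klf2 (-2.94). Pou5f1 was 0.48 and Sox2 0.64 log2 units lower in ELA than in ES, and neither passed the rule.

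For 5-azacytidine, AZA against ELA, all 10 factors were higher, again each by more than 2 log2 units, against a background of 13.8% of 19178 genes. With a difference of at least 2 required, the background was 5.59%. With the mean of the probes of a gene 9 factors were higher (12.8% of all genes), since Nanog was then at 0.62. Their median difference was 3.95, from 2.33 for Klf5 upwards to 5.06 for Tbx3, with Prdm14 (4.03) without a place in that order because of its dim ELA spot, and the median over all tested genes was -0.10. For 5-carboxy-8-hydroxyquinoline, CHQ against ELA, 9 factors were higher, against a background of 14.3% of 19188 genes. Of these, 6 were higher by more than 2 log2 units, against a background of 5.37% at a difference of at least 2. The median difference was 2.72, with a range from -0.02 for Nanog to 3.53 for Tbx3, and the median over all tested genes was -0.11. Both comparisons use the same ELA array. In 5 of 6 other processing settings Prdm14 did not pass the size rule for CHQ against ELA: its difference was 0.91 with arrays scaled to spike-in RNA, and with a difference of 1.95 to 3.08 its mean level lay under the floor in the other 4.

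**Figure D3:**
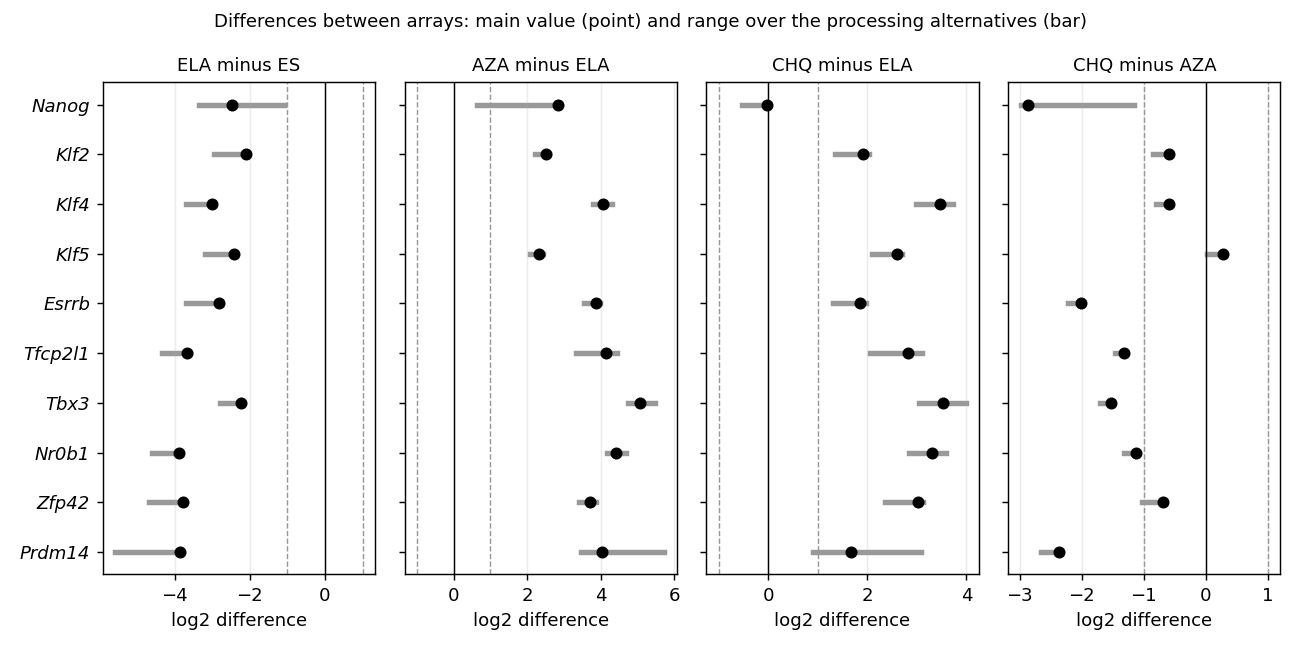
Log2 difference (horizontal axis) of each factor (vertical axis) in 4 comparisons, 1 panel each, with the point the main value, the bar the range over the main setting and 6 alternatives of processing, the dashed lines a difference of 1 in either direction and each panel on its own scale. All 10 points lie under -2 for ELA minus ES, 9 of 10 lie over 1 for CHQ minus ELA, and the Nanog bar for AZA minus ELA reaches down to 0.62.

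The treatments were set against each other with CHQ against AZA, on arrays of 1 slide. Of the 10 factors 6 passed the size rule as lower in CHQ, namely Nanog (-2.86), Prdm14 (-2.37), Esrrb (-2.02), Tbx3 (-1.54), Tfcp2l1 (-1.32) and Nr0b1 (-1.12). The background was 4.78% of 19172 genes lower by that rule, and the median difference was -1.22 for the 10 factors and -0.02 for all tested genes. Zfp42 (-0.69), Klf2 (-0.59), Klf4 (-0.59) and Klf5 (0.27) did not pass it, so the factors that differed between the treatments took in the homeobox factor, both nuclear receptors, Tfcp2l1, Tbx3 and Prdm14, and none of the 3 Krüppel-like factors. With spike-in scaling Zfp42 (-1.04) passed as well. The place of Nanog rests on its bright probe: with the mean of its probes CHQ minus AZA was -1.16, which passed the rule but lay behind Prdm14, Esrrb, Tbx3 and Tfcp2l1, and its dim probe had the opposite sign (0.53).

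The 2 comparisons within a slide use 4 different arrays and share none. Of the 10 factors, 9 were lower both in ELA than in ES and in CHQ than in AZA, and 6 passed the size rule in both. Among the 17729 genes tested in both comparisons 28.6% were lower in both at any size and 1.26%, which is 224 genes, passed the rule in both. When each slide was quantile normalised by itself, a setting added after the data had been seen, the 20 values of the factors moved by at most 0.22 log2 units and the same counts of 10 and 6 passed the rule.

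**Figure D4:**
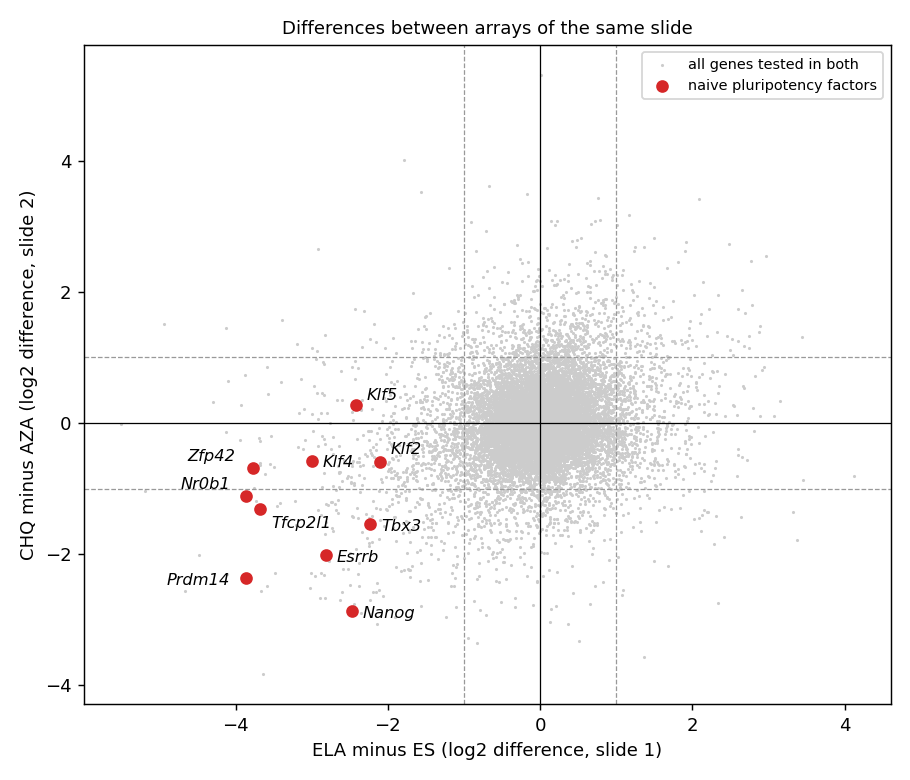
Log2 difference of ELA minus ES (horizontal axis, arrays of slide 1) and of CHQ minus AZA (vertical axis, arrays of slide 2) for 17729 genes (grey points) and the 10 factors (red points, named), with dashed lines at a difference of 1 in either direction. All 10 factors lie left of -2 and 9 of 10 lie under 0 on the vertical axis, the exception being Klf5 at 0.27.

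The treated arrays were also set against ES, across slides. In AZA, Tbx3 (2.84), Esrrb (1.06) and Klf4 (1.05) were higher than in ES by the size rule, none was lower, and the background was 11.2% higher and 8.38% lower of 19172 genes. The other 7 differences lay between -0.09 for Klf5 and 0.56 for Nr0b1. In CHQ, Nanog (-2.50) and Prdm14 (-2.20) were lower than in ES, against a background of 10.3% lower of 19166 genes, and Tbx3 (1.30) was higher, against 12.6% higher. The counts against ES depend on the processing. In the other settings the share of all genes past the rule was not computed for these comparisons. The counts and signs that follow therefore have no background beside them. Spike-in scaling moves every gene of an array by the same amount. The spike-in signals stood at -0.51 in ES, 0.20 in AZA and 0.45 in CHQ around the mean of the arrays, in log2 units. At the 75th percentile Klf4 (0.87) and Esrrb (0.64) no longer passed as higher in AZA, and 4 factors passed as lower in CHQ. With spike-in scaling only Tbx3 (1.95) passed as higher in AZA and Klf5 (-1.11) and Zfp42 (-1.28) passed as lower, while 8 factors passed as lower in CHQ, all but Klf4 and Tbx3, and none as higher. Signs turned as well: with spike-in scaling AZA minus ES turned negative for Esrrb (-0.16), Nanog (-0.83), Klf2 (-0.74), Tfcp2l1 (-0.48), Nr0b1 (-0.45) and Prdm14 (-0.66), and CHQ minus ES for Klf4 (-0.72) and Klf5 (-1.10). At the 75th percentile AZA minus ES turned negative for Nanog (-0.06) and Klf2 (-0.02) and CHQ minus ES for Klf5 (-0.15). With the mean of the probes of a gene AZA minus ES was -0.48 for Nanog and -0.26 for Tfcp2l1, and Tfcp2l1 also passed as lower in CHQ (-1.54). Only Tbx3 in AZA, as higher, and Nanog and Prdm14 in CHQ, as lower, passed the size rule against ES in every setting run. Some other factors kept their sign but did not pass the rule in every setting.

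Promoter sequence was set beside these values because one of the agents acts on DNA methylation and because the factors bind one another's promoters. The 250 bases before the start site were taken from RefSeq for 7 of the 10 genes (GRCm38, a different build from the probe coordinates) and were searched on both strands for 5 short motifs. The octamer-type POU motif TTTGCAT, found in 4.12% of 32851 promoters, was present in Nanog and Zfp42. The SOX motif ACAATG, found in 10.7%, was present in Nanog only, next to the POU motif with 1 base between them. The Krüppel-like motif CCACCC, in 28.1% of promoters, was present in Klf2, Esrrb, Nr0b1 and Zfp42, and in Nanog only when a second annotated start is used. The orphan receptor motif AAGGTCA, in 4.08%, was in none, and the STAT motif TTCNNNGAA, in 7.02%, was in Esrrb at 1 of its 2 annotated starts. The 2 promoters with the POU motif are printed from 5′ to 3′ on the strand of the gene, with POU and SOX motifs in capitals.
Nanog, GRCm38 chr6:122707239-122707488, plus strand: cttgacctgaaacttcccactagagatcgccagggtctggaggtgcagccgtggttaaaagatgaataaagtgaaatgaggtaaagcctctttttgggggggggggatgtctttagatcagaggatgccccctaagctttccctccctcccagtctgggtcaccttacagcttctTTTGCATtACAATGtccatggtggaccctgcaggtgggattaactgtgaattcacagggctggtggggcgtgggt
Zfp42, GRCm38 chr8:43307010-43307259, minus strand: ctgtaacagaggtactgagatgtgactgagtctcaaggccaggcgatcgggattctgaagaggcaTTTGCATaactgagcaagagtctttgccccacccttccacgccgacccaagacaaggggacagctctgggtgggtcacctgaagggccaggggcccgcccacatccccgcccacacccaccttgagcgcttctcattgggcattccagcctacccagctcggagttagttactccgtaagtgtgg
In Nanog the POU motif begins 75 and the SOX motif 67 bases before the start, and in Zfp42 the POU motif begins 185 bases before it. A match of letters is a description of the window and not a bound site.

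CpG sites, the positions at which DNA methylation occurs, were counted in the same windows, where the median over all promoters was 6 with quartiles of 2 and 16. Klf4 had 32 and Klf2 29, both CpG-dense, Tfcp2l1 had 16, Nr0b1 11 and Zfp42 9, while Esrrb had 6 and 3 at its 2 starts and Nanog 3 and 2. These 7 genes were not tested for a relation between CpG sites and level. Methylation itself was not measured on these arrays.

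For the other lists both directions were counted, so the backgrounds in the other direction are needed too: by the size rule 4.79% of genes were higher in ELA than in ES, 12.1% lower in AZA and 12.7% lower in CHQ than in ELA, and 5.55% higher in CHQ than in AZA. Of 20 other regulators of pluripotency none was higher and 9 were lower in ELA than in ES (background 5.38% lower), with a median of -0.79. In AZA against ELA 7 were higher (13.8%) and 3 lower (12.1%), in CHQ against ELA 8 were higher (14.3%) and 4 lower (12.7%), and in CHQ against AZA 1 was higher and 2 lower (5.55% and 4.78%), with medians of 0.32, 0.19 and -0.21. Nr5a2, a nuclear receptor that binds the Pou5f1 promoter, read 13.32 in ES, 9.71 in ELA, 12.35 in AZA and 11.57 in CHQ, and Sox15, a SOX factor, 9.65, 7.69, 10.70 and 10.38, both with ELA as the low array. Tcl1, a coactivator of AKT, read 13.07, 9.43, 14.36 and 10.53, so that CHQ was 3.83 log2 units below AZA. Tfap2c, an AP-2 factor, read 12.65, 9.83, 11.89 and 13.23 and was the 1 gene of the list that was higher in CHQ than in AZA. Dppa3 (Stella), which protects the oocyte genome from methylation changes, went its own way with 12.37, 10.46, 9.96 and 6.99, lowest in CHQ. The list was thus more mixed than the 10 factors in both treatments.

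Of the 14 other Krüppel-like genes, 11 could be tested in ELA against ES, where 1 was higher (Klf15, 1.21) and 1 lower (Klf9, -1.08). In AZA against ELA 3 of 12 were higher and 2 lower (Klf12, -2.58, and Klf6, -1.48), and in CHQ against ELA 2 of 12 were higher (Klf9, 1.95, and Klf10, 1.09) and none lower. With backgrounds of 4.79% and 5.38% in the first comparison and between 12.1% and 14.3% in the others, these counts of 1 to 3 genes are no result about the family. Klf12 (1.65) and Klf6 (1.49) were higher in CHQ than in AZA, 2 of 13 against a background of 5.55%, and none was lower. Among 13 relatives of the other factors on the array none of the 8 tested passed the rule in ELA against ES, 2 of 8 were higher in AZA than in ELA (background 13.8%) and 3 of 9 in CHQ (14.3%), and 2 of 9, Tbx2 (1.71) and Tbx4 (1.28), were higher in CHQ than in AZA (5.55%). Tbx4, a T-box relative of Tbx3, had the largest differences of these in the comparisons with ELA, though not in CHQ against AZA. It read 8.11, 7.25, 10.72 and 12.00.

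Genes of the formative and primed epiblast, the state that follows the naive one, went the other way in several comparisons. In ELA against ES 7 of 14 tested were higher (background 4.79%) and none lower, with Fgf5 (2.87), Sox3 (2.75) and Zic2 (2.50) in front. In AZA against ELA 1 was higher and 9 lower (backgrounds 13.8% and 12.1%), among them Sox3 (-3.47), Cdh2 (-3.40) and Fgf5 (-2.56). In CHQ against ELA 2 were higher (one of them Lef1, 1.80) and 6 lower (14.3% and 12.7%), among them Sox3 (-2.15) and Sall2 (-1.41), and in CHQ against AZA 6 were higher (5.55%) and none lower, led by Cdh2 (3.43), Lef1 (2.00) and Pou3f1 (1.84).

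The genes whose pattern over the 4 arrays was nearest to the mean of the factors were found by Euclidean distance between centred log2 values among 13008 genes well above background on all arrays. They were Accsl (0.28), Liph (0.35), Myo1g (0.36), Zfp57 (0.38) and Dnmt3l (0.42). Dnmt3l, the cofactor of the de novo DNA methyltransferases, read 15.96 in ES, 13.23 in ELA, 16.33 in AZA and 15.38 in CHQ, and Zfp57, which keeps methylation at imprinted loci, 10.91, 8.19, 12.11 and 10.46. Nearest to Nanog were Mep1b (0.28), a metalloprotease subunit, Spic (0.41), an ETS-family factor, and Aass (0.43), an enzyme of lysine breakdown. Mep1b read 9.60, 7.45, 10.27 and 7.20, Spic 10.32, 7.5, 10.71 and 8.04 and Aass 13.01, 10.62, 13.27 and 10.98, all high in ES and AZA and low in ELA and CHQ. With 4 arrays such a likeness says that values lie close and nothing of a common control.

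Markers of other cell states also differed between the arrays that separate the factors. All 5 measured genes of 2-cell-like cells were higher in both treatments than in ELA (backgrounds 13.8% and 14.3%), although the second probe of Usp17la was not (-0.83 and -1.11), with 4, 1, 5 and 5 of them well above background and a summed intensity of 2082, 688.3, 27684 and 30194 in ES, ELA, AZA and CHQ. Zscan4f, the defining gene, read 10.29, 6.17, 14.34 and 14.19, and its ELA spot was not well above background. Of 10 markers of primitive endoderm 7, 6, 10 and 9 were well above background, with sums of 136319, 89037, 110106 and 112935, of which Sparc alone gave 70.8% to 85.2%. Of the defining genes, Gata6 (6.41, 6.70, 8.05 and 9.88) and Sox17 (6.37, 6.77, 7.76 and 9.50) were not well above background in ES and ELA and were brightest in CHQ. Gata4 was nearly level (7.46, 7.47, 7.69 and 7.72). Sox17 differed less at its second probe, by 0.19 for AZA and 1.35 for CHQ against ELA, where the first gave 0.98 and 2.72. In AZA against ELA none of 6 tested was higher and 2 were lower (backgrounds 13.8% and 12.1%), Foxa2 (-1.84, but -0.72 at its second probe) and Dab2, and in CHQ 2 of 8 were higher and 2 lower (14.3% and 12.7%), with Foxa2 (-1.04, and -0.40 at the second probe) and Dab2 (-1.37) the lower ones. Of 8 trophoblast markers 7, 5, 6 and 7 were well above background, with sums of 119396, 88471, 34949 and 28888, and Cdx2 and Elf5 stayed at or near background throughout, between 5.90 and 6.85. The list was split: of the 5 genes tested 2 were higher and 2 lower in AZA than in ELA (backgrounds 13.8% and 12.1%), and 3 higher and 2 lower in CHQ (14.3% and 12.7%), with Plet1 (3.29 and 3.34) and Tfap2a (1.89 and 1.49, but 0.42 and 0.20 at its second probe) among the higher and the keratins Krt8 (-1.82 and -1.22) and Krt18 (-1.49 and -2.24) the lower ones. Krt18 alone gave 48.3% to 74.5% of the sums. Of 6 germ cell markers all were well above background on every array, with sums of 18350, 7289, 11908 and 15729, of which the brightest gene gave 31.2% to 60.9%. Of 6 early neural markers 6, 6, 6 and 5 were detected, with sums of 8421, 17271, 5469 and 6605, of which Nes alone gave 67.0% to 77.5%, and of 6 fibroblast markers 4, 4, 5 and 5, with sums of 5411, 14011, 8014 and 3352, of which Thy1 alone gave 73.1% to 88.6%, and Postn was not well above background on any array. The part of these cell states in the values of the 10 factors was not tested.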

How the data were processed

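RNA of 4 groups, 1 array each, was labelled with Cy3 and hybridised to Agilent 8x60K mouse arrays. The deposited scanner files hold spot intensity and local background per spot, made with Agilent Feature Extraction, version 10.7.3.1 per the file headers and 9.1 per the submitters' processing notes. The authors also deposited a table of log2 values, normalised with limma per the submitters' processing notes. Its scale is log2 and it was not centred, since each column followed the scanner values (r = 0.999 on each array). Here intensities were background corrected (normexp, offset 50, limma 3.58.1, R 4.3.3) and quantile normalised over 59305 gene spots and the control spots, with outlier-flagged spots left out, control spots dropped afterwards and spots averaged per probe. No gene spot was saturated. The brightest probe by its mean over the 4 arrays stood for a gene. For 26582 probes (47.7%) the gene name was taken from RefSeq by accession, and the other probes kept the name in the files. GRCm38.p6 was used for names and not for probe coordinates, and the promoter windows were on GRCm38. The 559 probes without a value on every array were left out. The files' text columns (other) give names, flags and coordinates in mm9.

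There were no replicates, so no test and no paired analysis was possible. Sums of list intensities are of main values on the linear scale. In alternatives on other scales the floor of 7.5 was moved to the same quantile of genes. The 10 factors and all lists were chosen with earlier results of these data known, so that they are no independent support for one another. In each other list at most 3 genes a comparison were named, those with the largest difference among genes well above background on both arrays. Genes outside that rule that the text names (Pou5f1, Sox2, Nanogpd, Gata4, Gata6, Sox17, Zscan4f, Cdx2, Elf5 and Postn, and Krt18 in AZA and Krt8 in CHQ) were chosen after their values were seen or as defining markers. The normalisation was run on data simulated from the ES array with its own background. Such data cannot show how it handles differences between slides. An array of a knockdown was not analysed here.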

Additional observations from a re-analysis of the deposited data

How the results depend on the processing

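No paired analysis was possible because each group has 1 array, and for the same reason no array could be left out. Another 6 settings of processing were run on the values and counts of the 10 factors, with quantile normalisation within the slide added after seeing the data for the comparisons of 1 slide. The other gene lists, the nearest genes and the counts over both slides were computed in the main setting only. Of 260 values of single factors 162 moved by less than the spread of repeated spots (0.159), 98 moved by more, and none changed sign in the 4 main comparisons. The 162 include values that could not move. With the mean over the probes of a gene, every factor but Nanog and Tfcp2l1 has a single probe and repeats its main value. The median difference of the 10 factors was -3.22 for ELA minus ES with the processed signal scaled to its 75th percentile, -3.70 with spike-in scaling and -3.08 in the deposited table. For AZA minus ELA it was 3.50 with spike-in scaling, 4.14 in the deposited table and 3.79 with the mean over the probes of a gene. For CHQ minus ELA it was 2.89 at the 75th percentile, 2.23 with spike-in scaling, 2.90 in the deposited table and 2.33 with the probe mean, and for CHQ minus AZA -1.39 with spike-in scaling. Spike-in scaling moved the median of all tested genes too, to -0.58, -0.43, -0.64 and -0.26 in these 4 comparisons. With a difference of at least 2 required, 3 factors in place of 6 were lower in CHQ than in AZA (0.81% of all genes). With spike-in scaling 7 were (7.32% of all genes), Zfp42 being added. The cause of these shifts was not tested. The widest ranges over the settings were those of Nanog, from 0.62 to 2.90 for AZA minus ELA, whose probes disagree, and of Prdm14, from 3.48 to 5.73, whose ELA spot is not well above background.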
